A study of Mus musculus with 5 samples.

Results

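The miR-29 family was followed through small RNA sequencing of mouse testis as its 3 guide-strand members, mmu-miR-29a-3p, mmu-miR-29b-3p and mmu-miR-29c-3p (mmu marks the mouse and is left out below). They were picked by name from the 717 mature miRNAs left in the deposited count sheet after repeated entries were merged, and all 3 were counted. The testes came from C57BL/6 mice aged 6 months. The Mtdh-/- mice carry a deletion of exon 3 of Mtdh, which encodes the cytoplasmic and nuclear protein metadherin, and the others were wild type. There were 3 Mtdh-/- libraries and 2 wild-type libraries, made from RNA of frozen whole testis. Nothing in the labels says whether libraries of a genotype came from separate animals, so each p-value below measures only how these samples spread, and that spread may be technical. Mtdh is not a miRNA, so the genotype labels could not be checked in these counts. In whole tissue, fewer cells of a type and less RNA per cell cannot be told apart.

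A miRNA guides Argonaute proteins to messenger RNAs that pair with its seed, the bases near its 5′ end, and lowers their stability or translation. Members of the miR-29 family share a seed and are known as repressors of genes for collagens and other extracellular matrix proteins and of the DNA methyltransferases Dnmt3a and Dnmt3b. Each mature miRNA is cut from a hairpin whose opposite (5p) strand is usually discarded.

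The mature sequences, from RefSeq on GRCm38.p6, show what the members share and how the counts can tell them apart. The capitals mark the seed (bases 2 to 8).
miR-29a-3p: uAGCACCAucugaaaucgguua
miR-29b-3p: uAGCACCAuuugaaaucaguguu
miR-29c-3p: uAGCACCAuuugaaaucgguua

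The seed AGCACCA occurred in these 3 names and in no other of the 1738 mature entries of the RefSeq table. Counted from 1 at the 5′ end, miR-29a-3p and miR-29c-3p differ by 1 substitution over 22 bases, C10U. miR-29b-3p and miR-29c-3p are identical over the first 17 bases and differ by A18G, G21U and U22A. The sources used here do not give the mismatches allowed in the authors' counting. A spill of tags from abundant miR-29a-3p into miR-29c-3p was not tested.

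The members lie in 2 pairs of hairpins. Mir29a and Mir29b-1 are 275 bases apart on the minus strand of chromosome 6, and miR-29a-3p itself is at chr6:31062673-31062694. Mir29b-2 and Mir29c are 426 bases apart on the plus strand of chromosome 1, and miR-29c-3p is at chr1:195037600-195037621. In GENCODE M21, Mir29b-1 overlaps an exon of the long non-coding RNA Gm27019 on the same strand. Mir29b-2 and Mir29c overlap exons of the non-coding transcript A330023F24Rik on the same strand, and of Cd46, a complement regulator gene, on the opposite strand. The hairpins of miR-29b are shown because both give the identical 3p arm, so its counts cannot be assigned to a chromosome, while their 5p arms differ; capitals mark the mature arms.
Mir29b-1 (chr6:31063023-31063093, minus strand): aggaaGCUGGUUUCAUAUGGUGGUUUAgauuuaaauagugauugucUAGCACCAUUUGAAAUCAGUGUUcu
Mir29b-2 (chr1:195037040-195037120, plus strand): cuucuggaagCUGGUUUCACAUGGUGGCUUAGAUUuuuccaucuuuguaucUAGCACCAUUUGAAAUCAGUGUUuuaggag

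Total miRNA counts were 118475 to 720259 in the Mtdh-/- libraries and 198640 to 474839 in the wild-type libraries, spread over 305 to 423 miRNAs in Mtdh-/- and 308 to 420 in wild type. An uncounted miRNA may therefore have had up to 3 counts, which is 4.17 to 25.3 CPM (counts scaled to the miRNA total of a library, per 1e6) in Mtdh-/- and 6.32 to 15.1 CPM in wild type. Such limits, and all intervals below, are for a 95% level and cover counting error only. Libraries of a genotype differed far beyond counting noise, with a chi-square per degree of freedom of 229 to 332, and the closest pair of all was Mtdh-/- 3 with wild type 1 (root mean square difference of log2 CPM 0.96, against 1.25 to 1.83 for the other pairs).

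miR-29a-3p was the abundant member in every library, and its level varied widely within each genotype. It had 1108, 411 and 2869 counts in Mtdh-/- 1, 2 and 3, against 1313 and 668 counts in wild type 1 and 2. This is 1538, 3469 and 11102 CPM in Mtdh-/-, against 6610 and 1407 CPM in wild type. The groups overlapped, with Mtdh-/- 3 and wild type 1 high and Mtdh-/- 1 and wild type 2 low. Among the miRNAs of a library, miR-29a-3p was in place 51, 43 and 18 in Mtdh-/- and in place 23 and 67 in wild type.

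The mean of miR-29a-3p was 5370 ± 5057 CPM in Mtdh-/- (SD, n = 3) and 4008 ± 3679 CPM in wild type (SD, n = 2). The highest Mtdh-/- library was 7.22-fold above the lowest (6.73 to 7.74 by counting error), and wild type 1 was 4.70-fold above wild type 2 (4.28 to 5.17). The log2 fold change between genotypes was 0.29 ± 1.03 (SE; edgeR quasi-likelihood test, adjusted p = 0.956), which is smaller than the spread between libraries. That direction rested on single libraries: it was -1.03 once Mtdh-/- 3 was left out, -0.53 with wild type 2 left out and 2.27 with wild type 1 left out. Wild type 1 and 2 were more than 4-fold apart in 21.5% of the tested miRNAs. The SD of log2 CPM within a genotype was 1.48 for miR-29a-3p, against a median of 0.85 over the 246 tested miRNAs, and 82.5% of these had a smaller SD.

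miR-29c-3p, which differs from miR-29a-3p by C10U, was a minor member with the larger genotype difference. It had 35, 15 and 32 counts in Mtdh-/- 1, 2 and 3, against 2 and 21 counts in wild type 1 and 2. On the CPM scale it was at 48.6, 127 and 124 in Mtdh-/-, against 10.1 and 44.2 in wild type. The value of wild type 1 rests on 2 counts (Poisson interval 1.22 to 36.4 CPM) and lies under the 15.1 CPM that 3 counts make there. All 3 Mtdh-/- libraries were above both wild-type libraries, but Mtdh-/- 1 and wild type 2 were close together. This order without overlap was seen for 4.88% of the 246 tested miRNAs.

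The mean of miR-29c-3p was 99.7 ± 44.3 CPM in Mtdh-/- (SD, n = 3) and 27.1 ± 24.2 CPM in wild type (SD, n = 2). The log2 fold change was 1.96 ± 0.88 (SE) and did not pass the threshold of 0.05 (edgeR quasi-likelihood test, adjusted p = 0.867; unadjusted p = 0.0593, from the same fit across all miRNAs). It stood at 1.5 without wild type 1 and at 3.04 without wild type 2. Of the tested miRNAs, 8 had a smaller p and 16 a higher log2 fold change. Mtdh-/- 1 over wild type 2 gave a CPM ratio of 1.10 (0.622 to 1.99), within counting error of no difference. Mtdh-/- 1 over wild type 1 gave 4.83 (1.24 to 41.4), and wild type 2 over wild type 1 gave 4.39 (1.07 to 38.6). Wild type 2 thus lay nearer to Mtdh-/- 1 than to wild type 1.

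miR-29b-3p was the scarcest member. It had 19, 5 and 8 counts in Mtdh-/- 1, 2 and 3, against 0 and 9 counts in wild type 1 and 2. This is 26.4, 42.2 and 31.0 CPM in Mtdh-/-, against 0 CPM (a limit of 15.1) and 18.95 CPM in wild type. All Mtdh-/- libraries were above both wild-type libraries, as for 3.91% of the 512 miRNAs with any count. Mtdh-/- 1 over wild type 2 had a ratio of 1.39 with a counting interval of 0.600 to 3.49.

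Too few counts kept miR-29b-3p out of the main test. The mean was 33.2 ± 8.14 CPM in Mtdh-/- (SD, n = 3), which is 2.20-fold the limit of 3 counts in wild type 1 (15.1 CPM). The lowest Mtdh-/- library was at 1.75-fold that limit. Counting error in Mtdh-/- is not part of these ratios: the Poisson intervals reached down to 15.9, 13.7 and 13.4 CPM in Mtdh-/- 1, 2 and 3. The ratios also leave out wild type 2, where miR-29b-3p was counted at 18.95 CPM. With no filter on low counts, the log2 fold change of miR-29b-3p was 1.85 ± 1.66 (SE; edgeR quasi-likelihood test, adjusted p = 0.892). It was 1.06 without wild type 1, the library in which it was not counted.

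**Figure D1:**
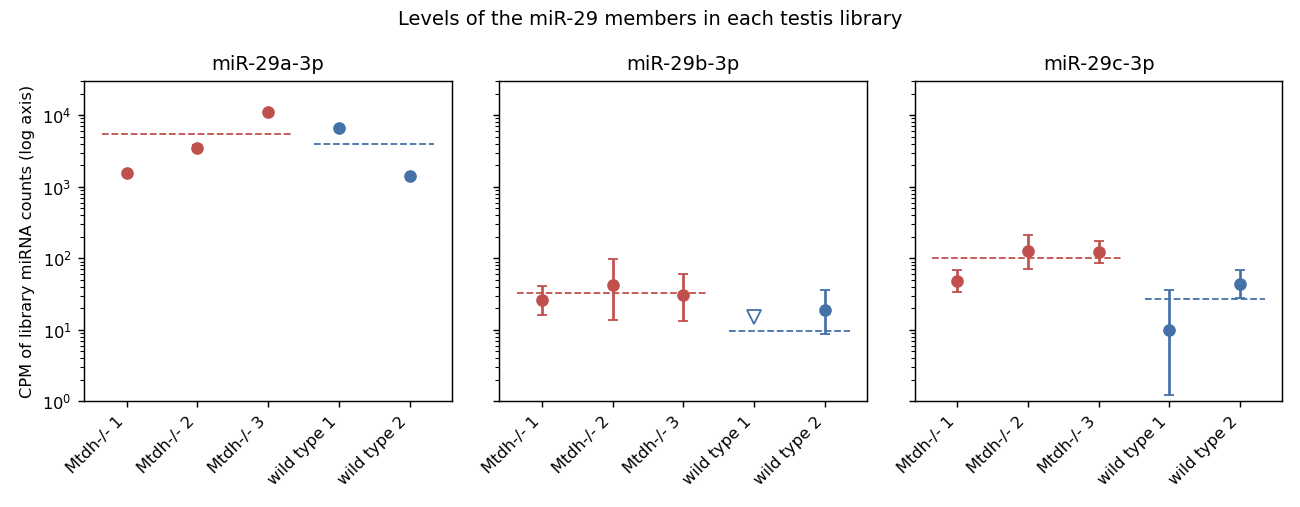
CPM on a log axis for each member in the 3 Mtdh-/- libraries (red) and the 2 wild-type libraries (blue), with 95% Poisson intervals; dashed lines are genotype means and the open triangle is the limit of 3 counts for miR-29b-3p in wild type 1. miR-29a-3p lies between 1407 and 11102 CPM with overlapping genotypes, while miR-29b-3p and miR-29c-3p stay at or below 127 CPM and are lowest in wild type 1.

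No member passed the test across all miRNAs. With edgeR, 0 of 246 miRNAs were higher in Mtdh-/- (0.0%) and 0 were lower (0.0%) at an adjusted p of 0.05, and 7 were under an unadjusted p of 0.05. DESeq2 also called 0, with 19 of 512 under an unadjusted p of 0.05, and gave miR-29c-3p a log2 fold change of 1.93 ± 1.04 (SE, adjusted p = 0.979). limma on the authors' normalized values also called 0, with 3 under an unadjusted p of 0.05. A p that misses the threshold does not show equal levels: the SE of miR-29a-3p was 1.03, against a median SE of 0.77 over all tested miRNAs.

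**Figure D2:**
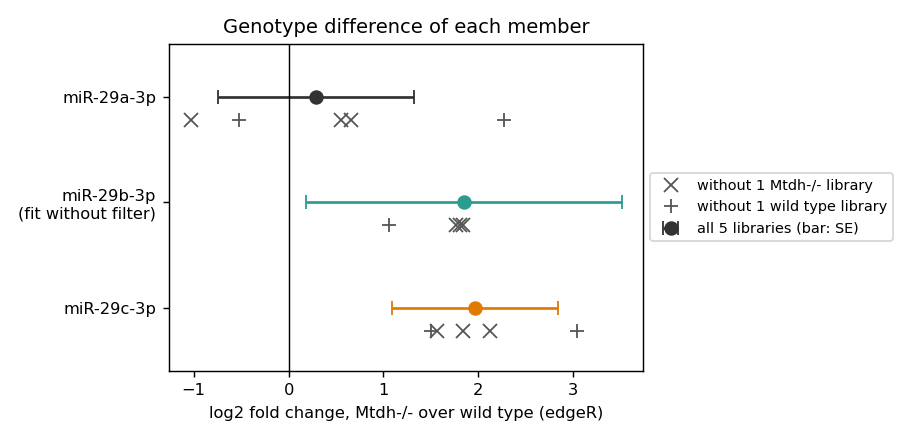
Log2 fold change of Mtdh-/- over wild type for each member on the x axis, with its SE as a bar, and beneath it the values with 1 library left out (crosses, Mtdh-/- libraries; plus signs, wild-type libraries). The values of miR-29a-3p lie on both sides of 0, from -1.03 to 2.27, and those of miR-29c-3p lie between 1.5 and 3.04.

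The summed family was dominated by miR-29a-3p. The 3 members summed to 1613, 3638 and 11256 CPM in Mtdh-/- 1, 2 and 3, against 6620 and 1470 CPM in wild type 1 and 2. The mean sum was 5503 ± 5085 CPM in Mtdh-/- (SD, n = 3) and 4045 ± 3642 CPM in wild type (SD, n = 2), with overlapping groups. miR-29a-3p made up 95.4%, 95.4% and 98.6% of the family's counts in Mtdh-/-, against 99.8% and 95.7% in wild type. The order miR-29a-3p, miR-29c-3p, miR-29b-3p was the same in all 5 libraries. The Poisson intervals of miR-29c-3p and miR-29b-3p overlapped in every library except Mtdh-/- 3, where they were 84.7 to 175 CPM for miR-29c-3p and 13.4 to 61.0 CPM for miR-29b-3p.

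Shares within the family need no scaling between libraries. miR-29c-3p made up 3.01%, 3.48% and 1.10% of the family in Mtdh-/- 1, 2 and 3, against 0.152% (Wilson interval 0.0417 to 0.553) and 3.01% in wild type 1 and 2. Wild type 2 thus had the same share as Mtdh-/- 1, and the lowest shares were those of wild type 1 and Mtdh-/- 3. miR-29b-3p made up 1.64%, 1.16% and 0.275% in Mtdh-/-, against 0% (Wilson upper bound 0.291) and 1.29% in wild type.

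**Figure D3:**
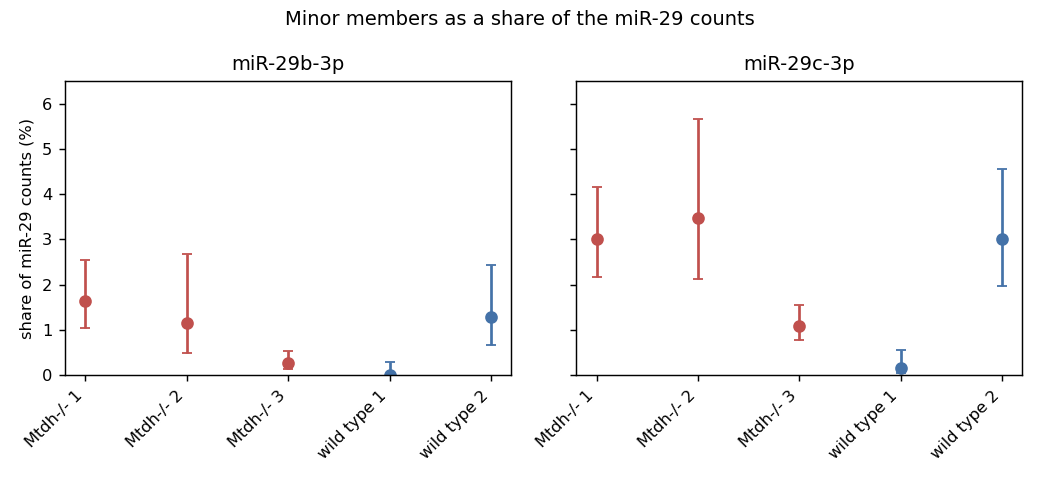
Share of the family's counts taken by miR-29b-3p and miR-29c-3p in each library, with 95% Wilson intervals (red, Mtdh-/-; blue, wild type). In both panels wild type 2 lies with Mtdh-/- 1 and 2, and the lowest shares are those of Mtdh-/- 3 and wild type 1.

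The log2 ratio of miR-29c-3p over miR-29a-3p was -4.96, -4.73 and -6.46 in Mtdh-/-, against -9.04 and -4.96 in wild type. The genotype difference in this ratio was 1.61, and an exact two-sided permutation test gave p = 0.6, where the smallest p that 3 against 2 libraries allow is 0.1. For miR-29b-3p over miR-29a-3p the difference was 1.93 (exact permutation test, p = 0.6). For miR-29c-3p over miR-29b-3p it was -0.32 (exact permutation test, p = 0.6). Without wild type 1 all 3 differences changed sign, to -0.43, -0.68 and 0.25. The ratios were tested as a family of 6 with the isoform shares below, and the adjusted p was 0.6 for each (exact permutation test).

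The ends of miR-29a-3p also varied. Its most abundant tag, as the authors' sheet gives it, had 21 bases and lacked the final base of the mature sequence; the capitals again mark the seed.
miR-29a-3p most abundant tag: uAGCACCAucugaaaucgguu

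This shorter tag took 17.5%, 22.6% and 30.1% of the counts of miR-29a-3p in Mtdh-/- 1, 2 and 3, against 31.8% and 26.2% in wild type 1 and 2. The full mature sequence took 13.99%, 21.9% and 19.8% in Mtdh-/-, against 20.8% and 23.4% in wild type. Mtdh-/- 1 was lowest in both, and its other isoforms took 68.5%, while they took 47.4% to 55.5% in the other 4 libraries. The exact mature share averaged 18.6% ± 4.10 in Mtdh-/- (SD, n = 3) and 22.1% ± 1.81 in wild type (SD, n = 2), which differ by -3.51 percentage points (p = 0.4, exact permutation test). The median exact share over tested miRNAs with at least 10 counts was 31.9% to 38.1% in Mtdh-/- and 34.7% to 34.8% in wild type, so miR-29a-3p lay below it in each library. It lay above the lower quartile in each library, which was 9.54% to 12.3%, so its share was not unusually low.

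**Figure D4:**
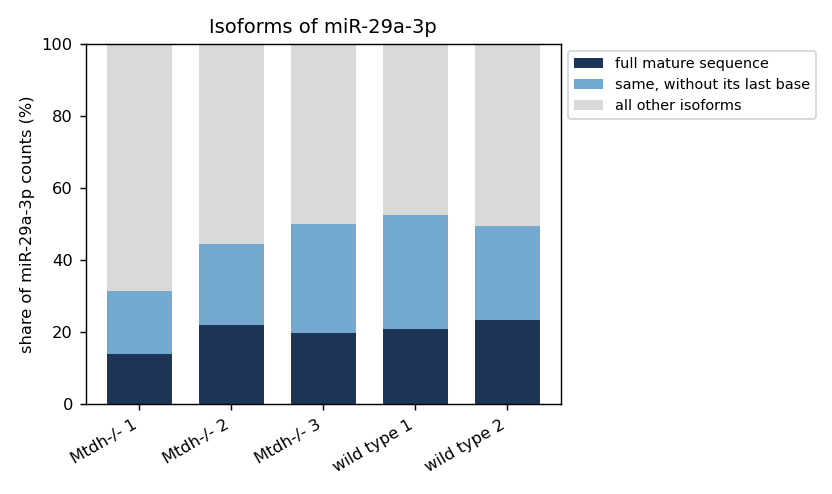
Share of the counts of miR-29a-3p per library (stacked bars, Mtdh-/- left of wild type) that were the full mature sequence, the same without its last base, or any other isoform. Other isoforms make up 68.5% in Mtdh-/- 1 and 47.4% to 55.5% in the remaining libraries.

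The minor members had too few tags for a close view of their ends. The exact mature sequence made up 63.2%, 100% and 50% of the 19, 5 and 8 tags of miR-29b-3p in Mtdh-/-, against 44.4% of 9 tags in wild type 2 (exact permutation test, p = 0.5, where the smallest p is 0.25 with 1 wild-type library). For miR-29c-3p it made up 25.7%, 66.7% and 28.1% in Mtdh-/-, against 0 of 2 tags and 47.6% in wild type (exact permutation test, p = 0.6). The genotypes overlapped in miR-29c-3p, and the Wilson intervals of single libraries were wide, for example 41.7% to 84.8% in Mtdh-/- 2.

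The opposite arms were nearly absent. miR-29a-5p and miR-29c-5p had 0 counts in all 5 libraries. miR-29b-1-5p had 9 counts and miR-29b-2-5p had 2, all in wild type 2, and in neither were any of the tags the exact mature sequence. In wild type 2, miR-29b-1-5p was thus at 18.95 CPM (Poisson interval 8.67 to 36.0) and equal in counts to miR-29b-3p. The more deeply sequenced Mtdh-/- 1 had 0 counts of it, which allows up to 4.17 CPM.

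The closest profiles across the libraries were found by the root mean square difference of log2 CPM over the 5 libraries, after each miRNA was centred on its own mean. miR-29b-3p was nearest to miR-29c-3p (0.37, against a median of 1.22 over 246 miRNAs), while miR-29a-3p was 1.76 from miR-29b-3p and 1.54 from miR-29c-3p (median 1.38). miR-29a-3p was high in wild type 1, where miR-29b-3p and miR-29c-3p were lowest. The counts behind the likeness of miR-29b-3p and miR-29c-3p were low, with at most 35 in a library.

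The miRNAs nearest to miR-29a-3p were miR-411-3p (0.28), of the imprinted Dlk1-Dio3 cluster, miR-883a-3p (0.32), of an X-linked cluster expressed in testis, and miR-186-5p (0.35). miR-411-3p was scarce, at 22.2, 33.8 and 193 CPM in Mtdh-/-, against 85.6 and 21.1 CPM in wild type. miR-186-5p was at 114, 447 and 1645 CPM in Mtdh-/-, against 936 and 194 CPM in wild type, again with Mtdh-/- 3 and wild type 1 high. The next to miR-29b-3p were let-7b-5p (0.43) and let-7c-5p (0.49), of the let-7 family that accompanies differentiation. let-7b-5p was at 3671, 5216 and 2043 CPM in Mtdh-/-, against 473 and 3218 CPM in wild type, so wild type 1 was low here too. miR-29c-3p was itself nearest to miR-29b-3p (0.37). Among the miRNAs that passed the filter on low counts, which leaves out miR-29b-3p, the nearest to miR-29c-3p were miR-22-3p, miR-202-3p (known from gonadal somatic cells) and miR-132-3p, at 0.53 to 0.54. miR-202-3p had only 5 to 51 counts. The more abundant arm miR-202-5p was at 977, 1680 and 1095 CPM in Mtdh-/-, against 1087 and 2748 CPM in wild type, so it was not lowest in wild type 1. miR-132-3p was scarce too, at 10.1 CPM in wild type 1, under the 15.1 CPM that 3 counts make there.

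**Figure D5:**
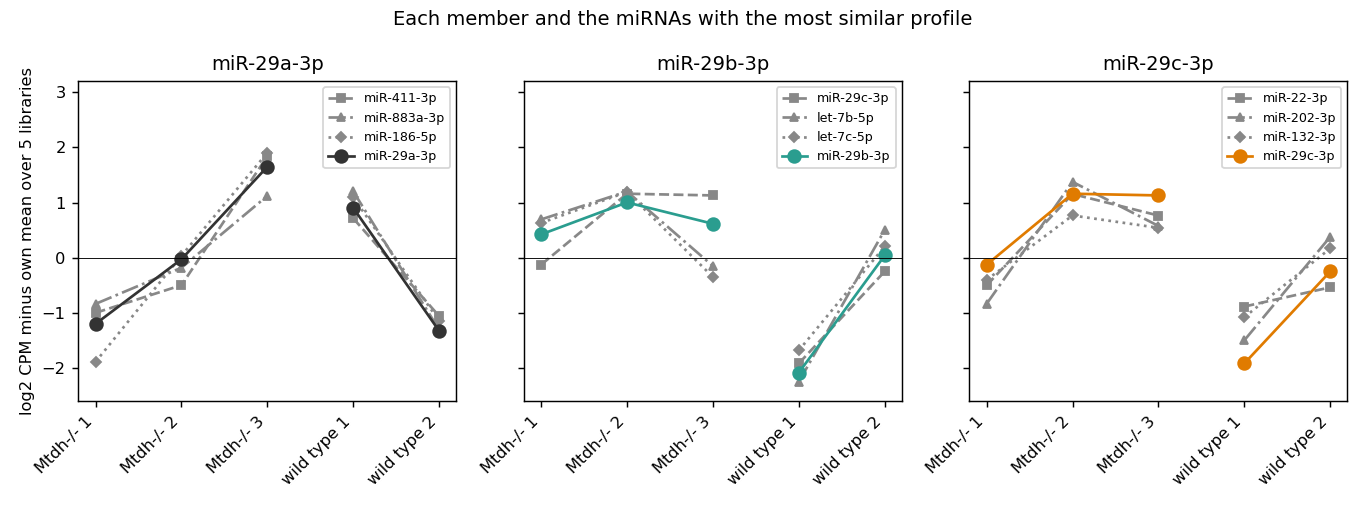
Log2 CPM minus the mean of each miRNA over the 5 libraries, for each member (coloured) and the 3 tested miRNAs with the nearest profile (grey). miR-29b-3p was not tested, so it is not drawn beside miR-29c-3p. Lines join libraries of a genotype only to guide the eye. miR-29a-3p and its neighbours are highest in Mtdh-/- 3 and wild type 1, and miR-29b-3p, miR-29c-3p and their neighbours are lowest in wild type 1.

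Among other miRNAs reported to target DNA methyltransferases, 7 of 7 listed were tested and 0 passed in either direction. Their log2 fold changes were positive in 4 and negative in 3, with a median of 0.22, against 0.19 over all tested miRNAs. The median is the value of miR-143-3p. Both miR-143-3p and miR-145a-5p, which were positive, are also in the smooth muscle and stroma list below, so the lists are not independent. miR-148a-3p, a regulator of Dnmt1 in human cells, averaged 13953 ± 4654 CPM in Mtdh-/- (SD, n = 3) and 11622 ± 907 CPM in wild type (SD, n = 2). miR-101b-3p was at 1066, 1055 and 751 CPM in Mtdh-/-, against 1384 and 1491 CPM in wild type. It and miR-101a-3p were the 2 of the list whose Mtdh-/- values were all below both wild-type values, which held for 9.35% of all tested miRNAs. The log2 fold change of miR-101b-3p was -0.41 ± 0.58 (SE, edgeR quasi-likelihood test, adjusted p = 0.918).

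Marker miRNAs of testis cell types moved between libraries as well. The 9 miRNAs of late germ cells, all counted, summed to 60367, 31998 and 81019 CPM in Mtdh-/-, against 108578 and 63367 CPM in wild type. Of the 8 tested, 3 had positive and 5 negative log2 fold changes, with a median of -0.31, against 0.19 over all tested miRNAs. The 5 of smooth muscle and stroma, all counted, summed to 86881, 116286 and 103690 CPM in Mtdh-/-, against 72025 and 120083 CPM in wild type. All 5 had positive log2 fold changes, with a median of 1.35, against 0.19 over all tested miRNAs. That median is the value of miR-145a-5p, which was at 797, 405 and 224 CPM in Mtdh-/-, against 206 and 257 CPM in wild type. Wild type 1, lowest in miR-29b-3p and miR-29c-3p, had the highest germ cell sum and the lowest stromal sum, but the sums rest on a few abundant miRNAs and the listed miRNAs did not move together. In the stromal list, miR-143-3p made up most of the sum and was lowest in wild type 1, at 68516 CPM. miR-145a-5p (206 CPM) and miR-199a-5p (20.1 CPM, from 4 counts) were also lowest in wild type 1, while miR-199a-3p and miR-214-3p were not. miR-199a-3p was at 1233, 1452 and 6594 CPM in Mtdh-/-, against 3242 and 1270 CPM in wild type, so wild type 1 was not low there. In the germ cell list, miR-34c-5p (49512 CPM) and miR-881-3p (20504 CPM) were highest in wild type 1, and the others were highest elsewhere. miR-449a-5p was at 10019, 6432 and 5228 CPM in Mtdh-/-, against 7128 and 36924 CPM in wild type, highest in wild type 2. miR-199a-5p was highest in Mtdh-/- 1 (2210 CPM) and miR-214-3p in Mtdh-/- 2 (4558 CPM). The endothelial marker miR-126-3p, 1 of 2 listed, was at 10446, 937 and 1764 CPM in Mtdh-/-, against 1022 and 4309 CPM in wild type. Its log2 fold change was 1.29 ± 1.30 (SE). miR-126-5p, a name not matched to the listed miR-126a-5p, went the other way, at -0.67 ± 0.75 (SE, edgeR quasi-likelihood test, adjusted p = 0.898). The 2 Sertoli cell miRNAs summed to 1020 to 1899 CPM in Mtdh-/- and 1113 to 2856 CPM in wild type. The 2 counted of the 3 for striated muscle summed to 270 to 1795 CPM in Mtdh-/- and 1386 to 1626 CPM in wild type, and the 3 counted of 4 for blood to 58.0 to 253 CPM in Mtdh-/- and 65.4 to 131 CPM in wild type. The listed miR-206-3p, miR-126a-5p and miR-486a-5p were not analysed under these names. No marker passed the filtered edgeR test. Without the filter on low counts, the stromal miR-199a-5p (adjusted p = 0.00617) and miR-214-3p (adjusted p = 5.81e-05) were called higher in Mtdh-/- by edgeR. The part of cell makeup in the miR-29 values was not tested.

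The authors' deposited tables of single Mtdh-/- libraries against the wild-type controls listed the members in both directions. For Mtdh-/- 1, the authors' deposited table gave miR-29a-3p a fold ratio (Mtdh-/- over control) of 0.229. For Mtdh-/- 2, the authors' deposited table gave miR-29b-3p 3.50 and miR-29c-3p 4.40. For Mtdh-/- 3, the authors' deposited table gave miR-29a-3p 2.69 and miR-29c-3p 2.15. These ratios were made from the most abundant sequence after 10 was added to both values, and all share the same controls. miR-29a-3p was therefore listed as lower in 1 library and higher in another. The ratios of the minor members rest on few tags of that sequence. miR-29b-3p had 5 in Mtdh-/- 2, against 0 and 4 in wild type 1 and 2. miR-29c-3p had 10 and 9 in Mtdh-/- 2 and 3, against 0 and 10 in wild type 1 and 2. The tables of single libraries were long, with 28 to 111 miRNAs listed in each direction. In the authors' deposited tables of combined Mtdh-/- libraries 0 members appeared, but each of these listed only 3 to 14 miRNAs. Absence from such short lists says little about the members.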

How the data were processed

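Small RNA of testis was sequenced in 3 Mtdh-/- and 2 wild-type libraries. Per the labels' protocols, the mirVana kit was used for RNA and an Illumina TruSeq kit for the libraries. Novoalign 2.07.11 is named in the submitters' processing notes. The sources used here give no genome build, trimming or rules of counting. The authors deposited, per the file headers, tag counts per mature miRNA and precursor, for all isoforms, for the most abundant sequence and for the exact mature sequence. A second deposited sheet held normalized tags, scaled by the authors and rounded, treated here as a score. The fold ratio in the authors' deposited tables was made, per the file headers, after 10 was added to both values. A further 218 columns of per-library values were not used.

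The 846 lines of counts covered 736 names. The precursor line with the largest total was kept (110 lines left out), and 19 names with an identical most abundant sequence were joined to another, leaving 717. A blank was read as 0, and the smallest count above 0 was 2. Counts of all isoforms were tested with edgeR 4.0.16 under R 4.3.3 (robust quasi-likelihood test, TMM scaling, filterByExpr, Benjamini-Hochberg adjustment over 246 tested miRNAs, threshold 0.05). The biological coefficient of variation was 0.70. Each SE is the fold change over the root of its F statistic. The test was tried on simulated counts first. Its pass mark was set only at a lower biological coefficient of variation than that of these data. It therefore does not show how many changes the test would find here. Alternatives were other scalings, DESeq2 1.42.0, limma 3.58.1 on log2 of the authors' normalized values, no filter, other count columns, a replicate block, and each library left out. Ratios had 0.5 counts added. Shares have Wilson intervals, counts exact Poisson intervals, and ratios of counts exact binomial intervals.

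The members, lists and tests were chosen with earlier results of these data known. The named miRNAs are the members, their 5p arms, the 3 tested miRNAs with the profile nearest to each member, and 7 miRNAs reported to target DNA methyltransferases. The cell type lists covered late germ cells, Sertoli cells, smooth muscle and stroma, endothelium, blood and striated muscle. miR-126a-3p was matched to miR-126-3p by sequence. Sequences are from RefSeq, in which all 3 members and 4 hairpins matched.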

Additional observations from a re-analysis of the deposited data

How the results depend on the processing

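No member passed a threshold of 0.05 under any alternative that gave a value: adjusted p was 0.789 to 0.998 for miR-29a-3p over 16 alternatives, 0.761 to 1.00 for miR-29b-3p over 14 (fits without the filter) and 0.757 to 0.995 for miR-29c-3p over 14. The filtered fits called 0 miRNAs, whichever library was left out. With no filter on low counts, edgeR called 3 miRNAs higher (miR-17-3p and the stromal markers miR-199a-5p and miR-214-3p) and 2 lower (miR-191-3p and miR-883b-5p), named after their values were seen. Most counts of each of these were in 1 or 2 libraries, and the cause was not tested.

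The direction of miR-29a-3p reversed without Mtdh-/- 3 (-1.03), without wild type 2 (-0.53) and with the replicate block (-0.20). Leaving out 1 library gave -1.03 to 2.27 for miR-29a-3p, 1.06 to 1.84 for miR-29b-3p and 1.5 to 3.04 for miR-29c-3p. For miR-29b-3p without wild type 2 the only wild-type library is at 0, so that fold is not given and is not part of the range. miR-29c-3p was below the filter in the counts of the most abundant and exact sequences.

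Leaving out 1 library moved the ratio difference of miR-29c-3p over miR-29a-3p between -0.43 and 3.65, of miR-29b-3p over miR-29a-3p between -0.68 and 4.54, and of miR-29c-3p over miR-29b-3p between -0.89 and 0.25. The last was 0.26 with 2 counts added in place of 0.5. The exact mature share moved between -5.18 and -1.22 percentage points for miR-29a-3p, 12.1 and 37.1 for miR-29b-3p, and -7.45 and 40.2 for miR-29c-3p, where -7.45 is the value without wild type 1. The cause of these reversals was not tested.

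The deviations of same-numbered libraries correlated over 246 miRNAs at -0.44 for number 1 and at 0.09 for number 2. With 2 wild-type libraries the deviations of one mirror those of the other. This check therefore cannot decide whether the numbers pair the samples. With the replicate block miR-29c-3p was at 2.01 (adjusted p = 0.943) and the calls stayed at 0. Upper-quartile scaling shifted the median of all tested miRNAs by -0.32 and library totals by -0.17. Relative to that median, miR-29a-3p was at 0.09 to 0.40 and miR-29c-3p at 1.75 to 1.79 over 4 scalings. Depth limits miR-29b-3p and miR-29c-3p most, with at most 35 counts in a library.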
